A study of Homo sapiens with 2 samples.

Results

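The annexins are a family of proteins that bind acidic membrane phospholipids when calcium rises, and 10 of their genes were followed here: ANXA1, ANXA2, ANXA3, ANXA4, ANXA5, ANXA6, ANXA7, ANXA10, ANXA11 and ANXA13. The genes were chosen by name with earlier results of these data in view. Every probe set annotated to exactly 1 of these symbols was taken, 19 of 54613 probe sets in all. They cover 10 of the 19775 genes that have such a probe set, of which 13609 reached the level called the floor below. Because the choice and the values rest on the same 2 arrays, all values of the annexins are given as a description, with no test.

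Each annexin has a conserved core of repeats that holds the calcium and lipid sites, and a tail at the amino terminus that differs from member to member and docks partners such as S100 proteins. Through these parts annexins help to organise membrane domains, carry vesicles, seal torn plasma membrane and, for ANXA1 and ANXA2, act at the cell surface. In the gut epithelium several members sit at the apical or basolateral membrane, and ANXA10 and ANXA13 are restricted to few tissues.

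RNA came from SW620, an established human cell line grown out of a colorectal cancer that had spread to a lymph node, kept in RPMI-1640. In the SOX2 knockdown culture, a lentivirus delivered a short hairpin RNA that targets SOX2, a transcription factor of stem and foregut cells. The other carried a non-targeting hairpin delivered the same way and is called mock knockdown; both cultures therefore share the lentiviral vector. The study set out to find genes under the control of SOX2 in colorectal lines. Sample titles end in KO although the source names say knockdown, and a free-text field shared by both samples names mouse liver lacking ECM1, which no other label supports. The labels do not say whether the knockdown culture was a pool or 1 clone. Each group held 1 array, so nothing could be tested, precision is limited by the number of arrays, and no error over cultures can be given.

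Values are intensities in arbitrary units. A log2 difference is the value with SOX2 knockdown less that with mock knockdown. The floor was the median of all values, 68.5, a convention in place of a measured background. Where the dimmer array lay under it, a fold is given against the floor as "at least". Median intensities were 69.0 (mock) and 68.1 (SOX2 knockdown), and the brightest values were 23253 and 21562. The targeted gene was lower in the culture so labelled: SOX2 probe set 228038_at stood at 2077 and 20.9, at least 30.3-fold lower, and 213721_at at 333 and 120. Its other probe sets, 214178_s_at and 213722_at, were under the floor on both arrays. All 8 of 8 colorectal epithelial markers reached the floor on both arrays, with summed lead intensities of 50482 and 63217. CDX2 barely did so, at 69.2 with mock and 116 with SOX2 knockdown, and its other probe set was under the floor on both arrays. Of the 8, VIL1 was 2.38-fold lower on the SOX2 knockdown array. Among markers of other cells, PTPRC of leukocytes and ALB of liver were under the floor in every probe set on both arrays. Leukocyte markers reached the floor in 2 of 5, summing to 147 and 259 with CD14 at 43.6 and 156. Fibroblast markers did so in 4 of 6 (552 and 454), with LUM at 71.7 and 17.8, endothelial markers in 2 of 3 (225 and 198) and liver markers in 3 of 5. Liver markers summed to 512 and 4538, of which SERPINA1 made up 313 and 4301. The part of these markers in the annexin values was not tested.

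Across the family, 8 of the 10 genes were above 0 at their brightest probe set and 2 below, beside 48.9% of all genes above 0. ANXA10, ANXA13, ANXA5 and ANXA4 were higher by 2-fold or more with SOX2 knockdown, and no annexin was 2-fold lower. Over all 13609 genes, 8.44% were higher by that much and 7.29% lower. With readings under the floor raised to it, the same counts of 4 and 0 annexins stood beside 7.85% and 6.64% of all genes. At 1.5-fold, 5 annexins were higher and 1 was lower, beside 15% and 14.8% of all genes. ANXA10 and ANXA13 entered only through the SOX2 knockdown array, where they were bright, so they had to differ. Among genes under the floor on the mock array, 55.8% were at least 2-fold higher. The median of the 10 differences was 0.64 with these 2 genes and 0.33 for the 8 genes at or above the floor on both arrays, against -0.01 for all genes. Since the genes were chosen on this contrast, nothing is read from these shares.

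**Figure D1:**
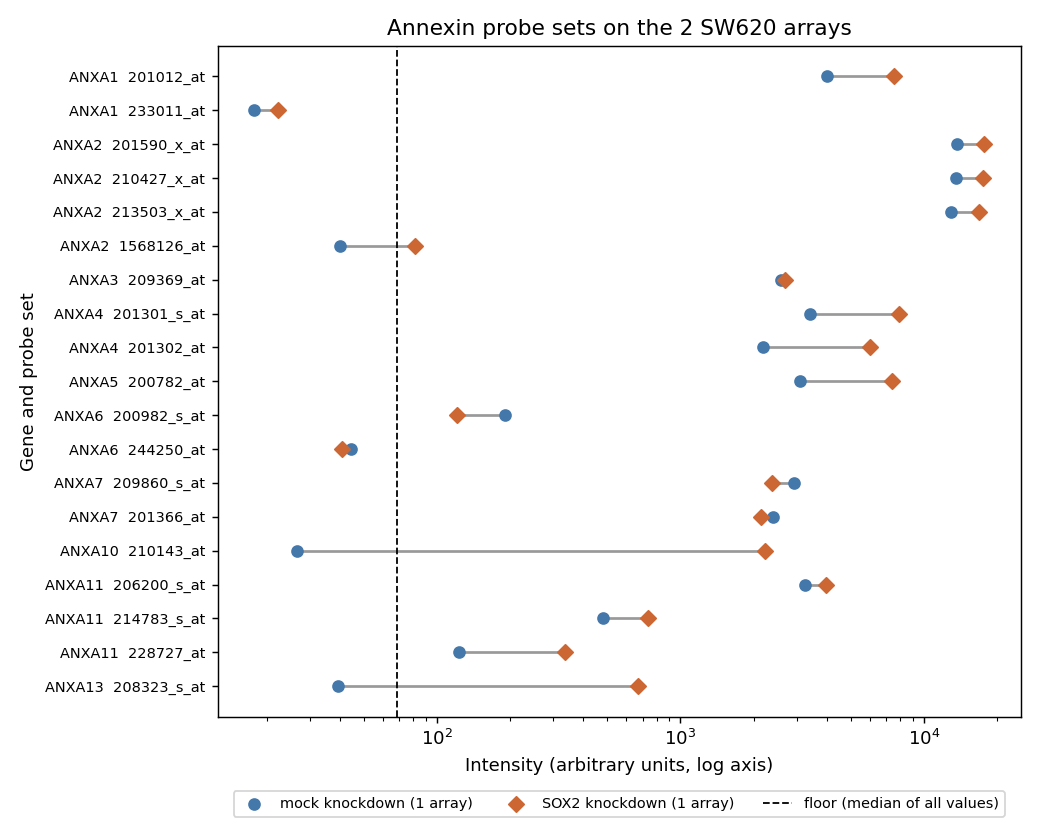
Intensity on a log axis of the 19 annexin probe sets, 1 row each, on the mock knockdown array (circles) and the SOX2 knockdown array (diamonds), with the floor of 68.5 as a dashed line. The long bars belong to ANXA10 (26.5 to 2220) and ANXA13 (39.3 to 667), while only the ANXA6 and ANXA7 rows run to the left.

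ANXA10 showed the widest gap. This annexin is known from the stomach and from serrated colorectal lesions, and its core has lost much of the calcium binding of its relatives. Its single probe set, 210143_at, read 26.5 with mock and 2220 with SOX2 knockdown, at least 32.4-fold higher. As deposited the log2 difference was 6.39, and against the floor it was at least 5.02. Its rank among all genes is not fixed, because the mock reading lies under the floor. The genes with the nearest deposited differences, which also rest on mock readings under the floor, were ABCG2, a drug efflux pump, at 6.39 (21.0 and 1765), and SLC40A1, the iron exporter, at 6.38 (23.7 and 1971). In RNA from a whole culture, more cells with a transcript and more transcript per cell cannot be told apart.

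ANXA13 came next. It is an annexin of the intestinal epithelium that is anchored to membranes by a lipid on its amino terminus and takes part in apical delivery. Its single probe set, 208323_s_at, read 39.3 with mock and 667 with SOX2 knockdown, at least 9.73-fold higher. The log2 difference was 4.09 as deposited and at least 3.28 against the floor. Both genes thus lay below the floor on 1 array and well above it on the other. Each rests on 1 probe set, so no second reading within the array was at hand.

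**Figure D2:**
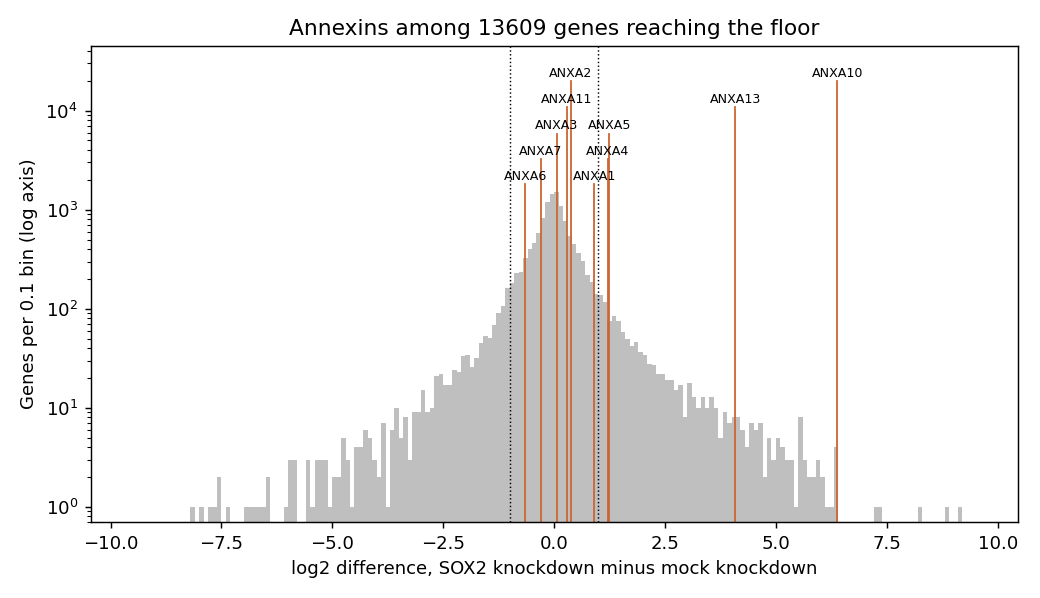
Histogram (grey, log axis) of the log2 difference, SOX2 knockdown minus mock knockdown, over 13609 genes in bins of 0.1, with a line for each annexin at its brightest probe set and dotted lines at 2-fold. ANXA10 at 6.39 and ANXA13 at 4.09, both as deposited from mock readings under the floor, lie in the right tail, ANXA4 (1.22) and ANXA5 (1.25) just past 2-fold, and ANXA6 (-0.65) is the lowest.

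The promoters of the annexins that were higher did not share one sequence type. RefSeq windows (build GRCh38.p14) of the 250 bases before the annotated start were at hand for 9 of the 10 genes, 13 windows in all; ANXA13 had none. The 4 below show the contrast: those of ANXA10 and ANXA1, which hold no CpG, and those of ANXA4 (its first window) and ANXA5, which are rich in it. In ANXA10 and ANXA1, capitals mark AACAAT, a core letter pattern of SOX factor sites, and TATAAA, the TATA box pattern; in ANXA4 and ANXA5, capitals mark each CpG. The windows are ANXA10 at chr4:168092287-168092536 (plus strand), ANXA1 at chr9:73151615-73151864 (plus), ANXA4 at chr2:69643558-69643807 (plus) and ANXA5 at chr4:121696981-121697230 (minus).
ANXA10: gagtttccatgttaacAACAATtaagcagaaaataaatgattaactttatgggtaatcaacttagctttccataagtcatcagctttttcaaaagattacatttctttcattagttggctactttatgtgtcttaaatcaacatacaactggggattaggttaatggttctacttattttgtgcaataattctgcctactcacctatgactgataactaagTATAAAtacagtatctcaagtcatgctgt
ANXA1: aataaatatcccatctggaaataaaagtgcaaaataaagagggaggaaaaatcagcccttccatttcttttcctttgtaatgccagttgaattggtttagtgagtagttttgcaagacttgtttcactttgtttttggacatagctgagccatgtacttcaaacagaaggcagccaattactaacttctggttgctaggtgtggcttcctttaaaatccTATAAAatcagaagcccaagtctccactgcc
ANXA4: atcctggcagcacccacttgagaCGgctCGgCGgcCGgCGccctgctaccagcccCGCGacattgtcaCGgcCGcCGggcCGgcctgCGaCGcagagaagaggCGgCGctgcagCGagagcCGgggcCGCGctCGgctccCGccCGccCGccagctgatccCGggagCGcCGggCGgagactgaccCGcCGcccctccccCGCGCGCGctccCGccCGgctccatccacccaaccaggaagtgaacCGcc
ANXA5: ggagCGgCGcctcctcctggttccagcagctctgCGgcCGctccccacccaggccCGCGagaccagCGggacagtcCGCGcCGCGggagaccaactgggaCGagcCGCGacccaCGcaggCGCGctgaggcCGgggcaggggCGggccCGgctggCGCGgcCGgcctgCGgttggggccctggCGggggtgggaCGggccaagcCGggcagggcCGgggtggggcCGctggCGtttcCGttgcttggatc

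The ANXA10 window was 31.2% GC with 0 CpG, and 2.16% of all 35116 windows had a lower GC share. It held AACAAT once, beginning 234 bases before the start, and TATAAA once, beginning 29 bases before it. Each pattern was searched on both strands, as written and as its reverse complement, and the matches do not overlap. It was the only one of the 13 annexin windows with the SOX-type pattern, which 8.98% of all windows held. Among the 2410 windows within 5 percentage points of its GC share, 29.3% held it. The ANXA1 window was 38.4% GC with 0 CpG and held TATAAA beginning 31 bases before the start. By contrast ANXA4 and ANXA5 had 77.2% and 78.8% GC, with 36 and 31 CpG against a median of 11 over all windows, and neither held either pattern. TATAAA was present in 4 of the 13 annexin windows, those of ANXA1, ANXA2, ANXA10 and the first of ANXA11, and in 10.7% of all windows. These matches describe letters in a short window; no binding was measured.

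ANXA4 and ANXA5 were higher by similar amounts. ANXA4 is an annexin of secretory and absorptive epithelia. Its probe set 201301_s_at read 3398 with mock and 7895 with SOX2 knockdown, 2.32-fold higher, a log2 difference of 1.22. Its other probe set, 201302_at, read 2189 and 6034, 2.76-fold higher at 1.46. Both readings of ANXA4 were therefore past 2-fold in one direction. ANXA5, which binds phosphatidylserine exposed on the cell surface and is used to stain dying cells, has 1 probe set here, 200782_at. It read 3104 and 7366, 2.37-fold higher, a difference of 1.25.

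ANXA1 and ANXA2 both pair with S100 proteins and act outside the cell. ANXA1, a glucocorticoid-inducible protein whose released form signals through formyl peptide receptors, read 4018 with mock and 7532 with SOX2 knockdown at probe set 201012_at. That is 1.87-fold higher, just short of 2-fold, at a log2 difference of 0.91. Its other probe set, 233011_at, was under the floor on both arrays at 17.8 and 22.3. ANXA2, which forms a complex with S100A10 and gathers plasminogen and its activator at the surface, was higher by a smaller amount. Of its 4 probe sets 3 are of the _x_at kind, which can match several transcripts, and read alike: 201590_x_at went from 13619 to 17663, 210427_x_at from 13541 to 17523 and 213503_x_at from 12980 to 16794. Each was 1.29-fold or 1.30-fold higher, with log2 differences of 0.37 to 0.38. These readings lie near the top of the scale, whose highest value was 23253. The remaining one, 1568126_at, went from 40.1 to 81.5 and crossed the floor, so that only a bound of at least 1.19-fold holds.

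Probe sets for the ANXA2 pseudogenes differed by amounts close to those of ANXA2, and signal from near-identical transcripts cannot be told apart. ANXA2P2 went from 4857 to 6405 (0.40), ANXA2P1 from 129 to 166 (0.36) and ANXA2P3 from 122 to 163 (0.42). A probe set annotated to both SNU13 and ANXA2, outside the rule, went the other way, from 6866 to 4319 at -0.67. ANXA2R, named as a receptor for ANXA2, went from 136 to 216 at 0.66.

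ANXA11 differed by an amount that depended on the probe set. This annexin has a long tail that binds the calcium sensor PDCD6 and S100A6, and it links RNA granules to lysosomes. The brightest, 206200_s_at, read 3243 with mock and 3949 with SOX2 knockdown, 1.22-fold higher at 0.28. The next, 214783_s_at, went from 482 to 733 (0.61), and 228727_at from 124 to 337, 2.72-fold higher at 1.45. All 3 were higher, over a range of 1.16 log2 units. For comparison, the median range between probe sets of a gene was 0.30 over 6440 genes with several probe sets at the floor. The SD between probe sets of a gene was 0.49 over those genes, and 0.39 over the 4 annexins that had them, ANXA11 included.

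ANXA3, ANXA6 and ANXA7 did not share the higher readings. ANXA3, known from neutrophil granules, read 2579 and 2678 at 209369_at, a log2 difference of 0.05. ANXA7, also called synexin, promotes fusion of secretory granules. Its probe sets read 2928 and 2373 (209860_s_at, -0.30) and 2406 and 2153 (201366_at, -0.16), so both were lower on the SOX2 knockdown array. ANXA6, which has a duplicated core and links membranes to actin, was the lowest of the family. Its probe set 200982_s_at read 190 with mock and 121 with SOX2 knockdown, 1.57-fold lower at -0.65, and 244250_at lay under the floor on both arrays at 44.5 and 40.6. PEX26, a peroxisome assembly protein, and CBR4, a mitochondrial reductase, had the differences nearest to that of ANXA6, both -0.65. Of the 17 annexin probe sets that reached the floor, 14 were above 0 and 3 below. ANXA2 supplied 4 of the 17 and ANXA11 supplied 3. No share above 0 was counted over all such probe sets. Over genes, each at its brightest probe set, it was 48.9%. Among the 17, 7 were at least 2-fold higher as deposited and 0 lower, beside 8.08% and 6.87% of all such probe sets. One of the 7 is ANXA2 at 1568126_at. With readings under the floor raised to it, 6 were higher and 0 lower, beside 7.15% and 5.89%.

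Other genes of the annexin family fell outside the chosen 10. ANXA9 was higher in both of its probe sets, from 86.9 to 430 (210085_s_at, 4.95-fold) and from 56.5 to 461 (211712_s_at, at least 6.73-fold). ANXA8 and its copy ANXA8L1 share their probe sets, which read 107 and 109 at 203074_at and were under the floor on both arrays at 1570140_at.

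Partner proteins of the annexins were mostly higher by less than 2-fold. All 4 S100 partners were above 0, beside 48.9% of all genes, with a median of 0.35. Of the 4, 0 passed 2-fold, while over all genes 8.44% were that much higher and 7.29% lower. S100A10, the partner of ANXA2, went from 10512 to 16066 at 200872_at (0.61) and from 140 to 181 at 238909_at (0.36). S100A11, the partner of ANXA1, went from 3835 to 5517 (0.52), while S100A4 and S100A6 differed by 0.10 and 0.18 at their brightest probe sets. A dimmer S100A6 probe set, 228923_at, went from 116 to 98.1 at -0.24. The 7 penta-EF-hand proteins and calpains are calcium sensors and proteases that dock on annexin tails or act in membrane repair. All 7 were above 0 with a median of 0.48. Of the 7, 0 passed 2-fold, and with so few genes nothing is read from these counts of 0. Among them SRI, the partner of ANXA7, went from 2090 to 3939 (0.91) and PDCD6, the partner of ANXA11, from 3660 to 4853 (0.41). Of the formyl peptide receptors only FPR1 reached the floor, at 92.6 and 101, and FPR2, through which ANXA1 signals, did not.

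In the plasminogen system at which ANXA2 acts, 1 of 4 measured genes passed 2-fold downwards and 0 upwards. Among all genes, 7.29% were that much lower and 8.44% higher. The median of the 4 was -0.48. PLAU, the urokinase-type activator, went from 910 to 103 at 205479_s_at, 8.84-fold lower, and its receptor PLAUR read 774 and 770 at 210845_s_at. Another probe set of PLAUR, 214866_at, went from 188 to 598 at 1.67, so the receptor's direction depended on the probe set. SERPINE2, an inhibitor of the activators, differed by -0.69, and PLG, plasminogen itself, read 91.5 and 76.1, close to the floor. PLAT, the tissue-type activator, was under the floor on both arrays.

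Membrane repair genes split. Of 9 measured, 3 passed 2-fold upwards and 0 downwards, beside 8.44% and 7.29% of all genes, and the list median was 0.46. Taking for each gene the probe set that differed least gave a median of 0.01, and leaving out _s_at and _x_at probe sets gave 0.19. AHNAK, a giant scaffold recruited by ANXA2 and S100A10, went from 734 to 2082, 2.84-fold higher, at 211986_at and from 117 to 951 (3.03) at 220016_at. Its 238855_at and 1563560_at differed by -0.06 and 0.01. CHMP2A and CHMP4B, subunits of the ESCRT-III filaments that pinch off damaged membrane, were higher at 1.25 and 1.10, and CHMP4C differed by 0.46. Another subunit, CHMP2B, was lower in each of its probe sets, at -0.64 (202536_at), -0.24 (202537_s_at) and -0.36 (202538_s_at). VPS4A and VPS4B, ATPases that take those filaments apart, differed by -0.92 and 0.88. The ferlin MYOF, a calcium sensor of membrane fusion, differed by -0.41.

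Among enzymes that move phosphatidylserine, the lipid bound by ANXA5, all 7 measured genes were above 0, beside 48.9% of all genes. Their median was 0.48. As deposited 2 were at least 2-fold higher, PLSCR1 and PLSCR4, beside 8.44% of all genes. With readings under the floor raised to it only 1 was, PLSCR1, beside 7.85%, and the list median was 0.32. The scramblase PLSCR1, which is also induced by interferon, went from 977 to 2778 (1.51) at 202446_s_at and from 320 to 1188 (1.89) at 202430_s_at. PLSCR4 went from 11.9 to 69.1, at least 1.01-fold higher. XKR8 and ANO6, scramblases that expose the lipid in dying and activated cells, differed by 0.02 and 0.15. Copines, another family of calcium-dependent lipid binders, had a median of 0.12 over 8 genes. Only CPNE8 was past 2-fold as deposited, at 16.7 and 114, or at least 1.66-fold.

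Phospholipases A2, which ANXA1 was first described as inhibiting, held some wide gaps. Past 2-fold were 2 of 5 measured genes, both higher, beside 8.44% of all genes higher and 7.29% lower. The list median was 0.53. PLA2G4A, the cytosolic enzyme that frees arachidonic acid, went from 12.1 to 584, at least 8.52-fold higher, and passed the floor only on the SOX2 knockdown array. PLAAT3 went from 388 to 5090 at 209581_at, 13.1-fold higher. PLA2G12A differed by 0.53 at its brightest probe set and by 0.46 to 1.30 at the others. Genes that accompany ANXA10 in gastric-type and serrated lesions did not go one way. Of 7 measured, 2 passed 2-fold upwards and 1 downwards, beside 8.44% and 7.29% of all genes, and the list median was -0.03. TFF1, a trefoil peptide, went from 196 to 1271 (2.69) and AQP5, a water channel, from 95.9 to 244 (1.35). VSIG1, a junction protein of the stomach, went from 198 to 19.8, at least 2.89-fold lower. The gastric mucins MUC5AC and MUC6 differed by -0.03 and -0.09.

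**Figure D3:**
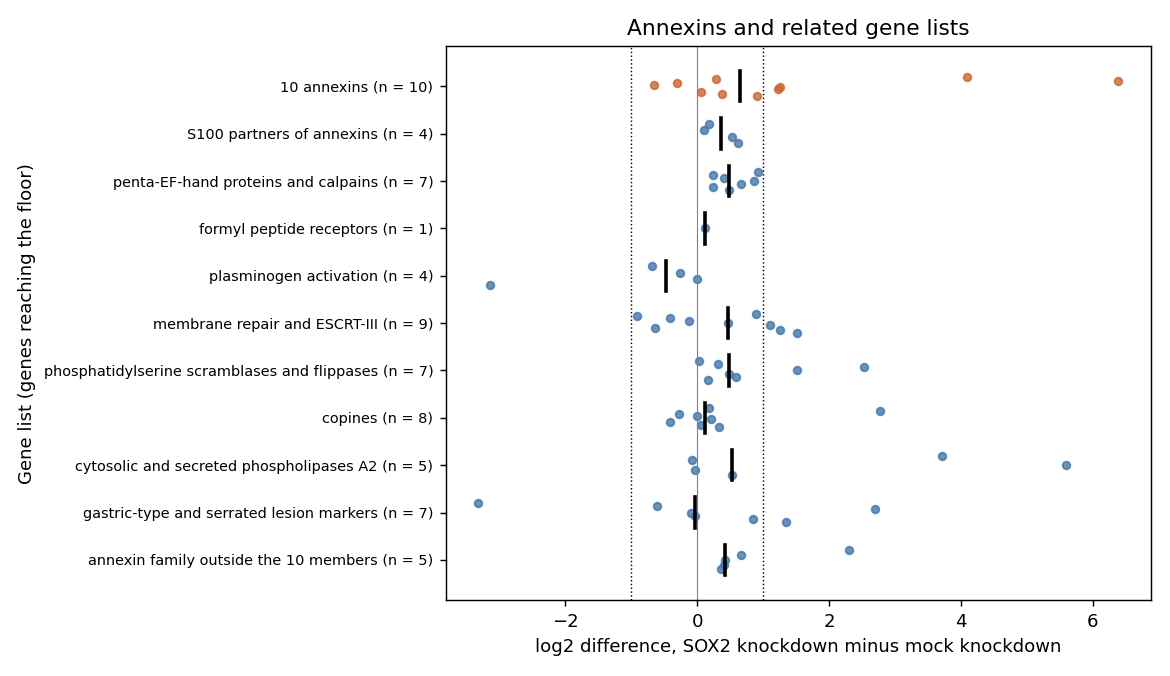
Log2 difference, SOX2 knockdown minus mock knockdown, of each gene reaching the floor (points) in the 10 annexins and 10 related lists, with the list median as a black bar and dotted lines at 2-fold. The S100 partners and penta-EF-hand genes lie between 0 and 1, the plasminogen genes at or below 0, and the phospholipases reach 5.59.

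The genes beside each annexin on its chromosome were read by their order in the RefSeq table. Of the 40 genes that are the 2 nearest measured on either side of the 10 annexins, 8 passed 2-fold upwards and 3 downwards as deposited, beside 8.44% and 7.29% of all genes. With readings under the floor raised to it the counts were 7 and 3. Of the 7, 4 lie beside ANXA13 and 3 beside the other annexins, among 36 genes. ANXA13, on chromosome 8, stood among genes that were mostly higher. On one side FAM91A1, a vesicle tethering factor, differed by 1.58. On the other FBXO32, a ubiquitin ligase subunit, differed by 1.74 as deposited, from a mock reading under the floor. Against the floor FBXO32 was only just past 2-fold. The window was then widened to 10 measured genes on either side, a choice made after these values were seen. Of the 20 genes beside ANXA13, 19 were above 0 and 15 at least 2-fold higher, with a median of 1.54. Among all genes, 48.9% were above 0 and 8.44% at least 2-fold higher. With readings under the floor raised to it, 14 of the 20 were at least 2-fold higher, with a median of 1.46. TYW2 alone was lower, at -1.65. MTSS1, an actin and membrane binding protein, went from 140 to 2483 (4.15) and TMEM65 from 147 to 1208 (3.04). The chromatin ATPase ATAD2 went from 1274 to 3809 (1.58) and the sterol enzyme SQLE from 1441 to 6329 (2.13). Of 13116 genes, 9 had 20 neighbours with a median as high, ANXA13 among them, and windows of adjacent genes overlap. The 20 include ZHX1, C8orf76 and the readthrough gene of both, which overlap. With readings under the floor raised to it, ANXA13 itself stood 1.82 above the median of its neighbours.

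ANXA5, on chromosome 4, also lay among higher genes, with 19 of 20 above 0 and 8 at least 2-fold higher. Over all genes these shares were 48.9% and 8.44%. The median of the 20 was 0.79, which 0.701% of windows reached. With readings under the floor raised to it, 7 of the 20 were at least 2-fold higher, beside 7.85% of all genes. The median was then 0.72. There UGT8, a galactolipid enzyme, differed by 5.90 as deposited, from under the floor, and the nearest genes, MAD2L1 and EXOSC9, by 0.21 and 0.16. With the probe set of smallest difference for each gene, the median beside ANXA5 was 0.27. ANXA10, on the same chromosome, was different: 15 of its 20 neighbours were below 0, while 48.9% of all genes were above 0. Their median was -0.56, and 2.90% of windows were as low. With readings under the floor raised to it that median was -0.30, and ANXA10 stood 5.32 above it. Its nearest genes were HADHAP1, a pseudogene, at 0.08, and DDX60, an interferon-induced helicase, which reached 82.6 from under the floor, at least 1.21-fold higher. DDX60L, one place further, went from 58.3 to 285, at least 4.15-fold higher. Beside ANXA7, 16 of 20 genes were below 0, among them MRPS16 at -0.90 and PPP3CB at -0.20. Their median was -0.48, and 4.59% of windows were as low. Windows of adjacent genes overlap and their width was set after values were seen, so the shares of windows are a description, not a test. The neighbours of ANXA4 were not higher with it: their median was -0.09, with AAK1 at 0.99 and GMCL1 at -0.47. Of the 20, 0 passed 2-fold, beside 8.44% of all genes higher and 7.29% lower.

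For the other annexins the neighbours had medians between -0.13 and 0.25. ANXA1 lies next to ALDH1A1, a retinaldehyde dehydrogenase that went from 29.4 to 1874 and was at least 27.3-fold higher, while C9orf40 on the other side differed by -0.13. The nearest genes to ANXA2 were BNIP2 at -0.59 and ICE2 at 0.31. ANXA3 lay between FRAS1 at 0.83 and BMP2K at -1.30. ANXA6 lay between TNIP1 at 0.83 and CCDC69, which went from 143 to 62.6, at least 2.08-fold lower. ANXA11 lay between PLAC9 at 0.10 and LINC00857 at -0.18. What set these regional differences was not tested.

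**Figure D4:**
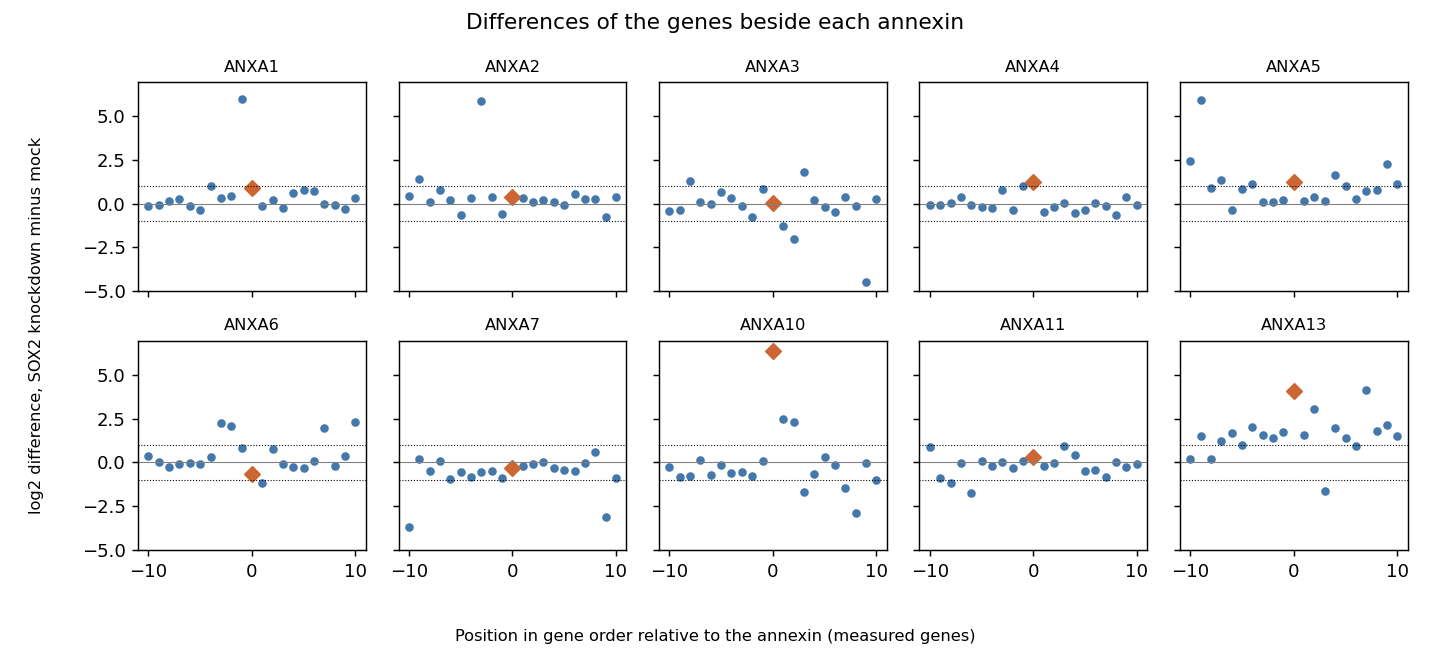
Log2 difference, SOX2 knockdown minus mock knockdown, of each annexin (diamond) and of up to 10 measured genes on either side of it (circles), by place in gene order, with dotted lines at 2-fold. Nearly all circles beside ANXA13 lie above 0 (19 of 20), whereas ANXA10 stands above neighbours with a median of -0.56.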

How the data were processed

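Biotin-labelled RNA was read on 2 Affymetrix arrays, 1 for mock knockdown and 1 for SOX2 knockdown. Per the submitters' processing notes the authors used RMA, with no version or settings stated, and deposited 1 intensity per probe set and array. That the scale is linear follows from the range of the values. RMA equalises the distributions of arrays it is run on, so a change in total RNA cannot be seen.

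Of 54675 rows, 62 array controls were left out. A platform annotation gave 1 symbol for 41091 probe sets, several for 1801 and none for 11721. Log2 values were taken with no pseudocount. A gene was represented by its probe set with the highest mean log2 value and entered when either array reached the floor (median of all values). No test was possible with single arrays, and 2-fold served as a limit of size. The members and lists were chosen with earlier results of these data known. Named genes were SOX2, the annexins, list members past 2-fold, S100A10, S100A11, the nearest gene on either side of each annexin and the 2 genes with differences nearest to the highest and the lowest annexin; other list members and the wider neighbours were named after their values were seen. For gene order, 13592 genes were matched by Entrez identifier to RefSeq GRCh38.p14. Counting was checked on simulated data. Alternatives were other normalizations, floors, limits, probe set choices and a pseudocount. Python 3.11.15, numpy 2.4.6, pandas 2.3.3 and matplotlib 3.10.9 were used.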

Additional observations from a re-analysis of the deposited data

How the results depend on the processing

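No paired analysis was possible because each group held 1 array. Every annexin kept its direction under the alternatives run, apart from ANXA2 at the probe set shared with SNU13, an alternative chosen after the data were seen, at -0.67. Not all alternatives could change a difference. For the annexins a floor at another percentile could only drop a gene, while over all genes and the lists a lower floor could also add genes. Probe set choices could not change ANXA1, ANXA3, ANXA5 or ANXA10, with 1 probe set each at the floor. For ANXA6 and ANXA13, also with 1 each, such choices could only drop the gene. A difference was said to move when it shifted by at least 0.49, the SD between probe sets of a gene. With a pseudocount of 32, ANXA10 differed by 5.27 and ANXA13 by 3.29, and with values under the floor raised to it by 5.02 and 3.28. Without _s_at and _x_at probe sets, ANXA2 differed by 1.03 and ANXA11 by 1.45, and ANXA13 could not be given. The ANXA2 value there comes from 40.1 on the mock array, under the floor, and is at least 0.25 against it. ANXA6 could not be given there or with the floor at the 75th percentile. At 1.5-fold, 5 annexin genes and 9 annexin probe sets were higher, and 1 annexin gene and 1 annexin probe set were lower. Of 13609 genes, 2044 (15%) were higher and 2012 (14.8%) lower. At 3-fold, 2 annexin genes and 2 annexin probe sets were higher and 0 lower, beside 604 of 13609 genes higher and 467 lower. All probe sets were not counted at 1.5-fold or 3-fold. The median of phospholipases A2 was 3.71 without _s_at and _x_at probe sets and with the floor at the 75th percentile, and -0.02 with the floor at the 25th. The membrane repair median lay between 0.01 and 0.67. The gastric-type median was 1.35 with the floor at the 75th, and the copine median lay between -0.11 and 0.18 over the alternatives. The median beside ANXA13 lay between 1.40 and 1.56, and that beside ANXA5 between 0.27 and 1.11. Fewer genes entered under the higher floor and without those probe sets; other causes were not tested. The other normalizations moved the median of all genes to at most 0.01 and at least -0.02. With 1 array per group, variation between cultures is not measured, and readings under the floor have no order.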
